A study of Mus musculus with 9 samples.

Results

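The Tnf, Lta and Ltb locus holds 3 neighbouring genes of the tumour necrosis factor family on mouse chromosome 17, and its members were taken by their symbols in the GENCODE M21 annotation, which gave 3 of the 45321 genes with a transcript in the tables. The series sequenced RNA of CD4+ T cells taken from the spleens of C57BL/6 mice, an inbred laboratory strain, in 9 libraries. The cells had been purified untouched, that is without labelling the CD4+ cells themselves, and all of them were first kept for 1 h in Compound 10 or in DMSO. Compound 10 is named in the series as a small molecule against NFAT:AP-1, the complex that these transcription factors form on DNA. The stimulated compound 10 group (3 libraries) received 12.5 µM Compound 10 and then 10 nM PMA, an activator of protein kinase C, with 1 µM of the calcium ionophore ionomycin, for 2 h. The stimulated vehicle group (2 libraries) received DMSO and the same stimulation, the unstimulated compound 10 group (2 libraries) received 12.5 µM Compound 10 alone, and the unstimulated vehicle group (2 libraries) DMSO alone. The unstimulated groups are listed with 1 h of pretreatment and 0 h of stimulation, and no further time in culture is given for them. Time in culture and in the compound may therefore differ between the states, and cannot be told apart from stimulation. The age and sex of the mice are not among the labels, which also leave unsaid whether each library had its own animal or culture. All p-values therefore rest on library-to-library spread alone, and that spread may be technical.

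Tnf encodes tumour necrosis factor, which is made as a membrane protein, is cut off the cell surface by a protease and signals through the receptors TNFR1 and TNFR2. Lta encodes lymphotoxin alpha, a secreted cytokine that binds the same receptors as a homotrimer and is held at the cell surface in a heterotrimer with lymphotoxin beta, the membrane-anchored product of Ltb, which signals through the lymphotoxin beta receptor. In T cells the Tnf promoter is a textbook target of NFAT, bound together with ATF2 and JUN, and the short-lived Tnf mRNA is controlled by AU-rich elements in its 3′ UTR, while the lymphotoxins are known for lymphoid organ development.

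In GRCm38 the locus spanned 10913 bp. Ltb (ENSMUSG00000024399) lay on the forward strand at chr17:35194439-35196320, Tnf (ENSMUSG00000024401) on the reverse strand at chr17:35199381-35202007, and Lta (ENSMUSG00000024402) on the reverse strand at chr17:35203165-35205351. The ends of Ltb and Tnf faced each other across 3060 bp, and the start of Tnf lay 1157 bp from the end of Lta. No exon of one member overlapped another. The tables held 6 transcripts of the locus: Tnf-201 with 4 exons and Tnf-202, which skips the 48 bp exon 3, Lta-201 with 4 exons, Ltb-201 and Ltb-203 with 3 exons each, and Ltb-202, a retained-intron transcript.

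The promoters are shown because the compound is directed at a complex that contains NFAT. Each window is the 250 bases before the start in RefSeq (GRCm38.p6), and the last 68 bases of the Ltb window, which GENCODE M21 places inside Ltb-201, are left out of the print. They are written 5′ to 3′ on the strand of the gene, at chr17:35202008-35202257 (reverse strand) for Tnf, chr17:35205352-35205601 (reverse strand) for Lta and chr17:35194257-35194438 (forward strand) for Ltb, and capitals mark the core of an NFAT site, GGAAA, or its reverse complement TTTCC.
Tnf promoter: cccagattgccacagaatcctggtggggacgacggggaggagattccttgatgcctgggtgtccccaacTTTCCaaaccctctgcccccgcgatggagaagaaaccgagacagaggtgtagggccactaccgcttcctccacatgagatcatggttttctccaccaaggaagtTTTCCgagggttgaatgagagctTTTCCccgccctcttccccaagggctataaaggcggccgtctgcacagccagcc
Lta promoter: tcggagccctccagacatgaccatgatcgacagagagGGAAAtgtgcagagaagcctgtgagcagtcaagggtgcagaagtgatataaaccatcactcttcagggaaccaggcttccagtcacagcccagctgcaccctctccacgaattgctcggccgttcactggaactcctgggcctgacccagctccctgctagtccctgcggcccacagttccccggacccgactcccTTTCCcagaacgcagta
Ltb promoter: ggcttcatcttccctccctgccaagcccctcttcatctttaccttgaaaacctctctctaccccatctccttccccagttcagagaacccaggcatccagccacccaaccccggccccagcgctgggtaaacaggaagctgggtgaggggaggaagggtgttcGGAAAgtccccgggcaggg
These letters occurred 3 times before Tnf, the match closest to the start ending at position -50, 2 times before Lta and 1 time before Ltb, both strands searched. Of 32851 mouse promoters of the same length, 55.6% held at least 1 match and 6.39% at least 3. The sequence TATAAA lay at -29 to -24 before Tnf and at -167 to -162 before Lta, and was in 12.4% of promoters. The Ltb match overlapped a match to the NF-kB consensus at -87 to -78, which 7.25% of promoters held on either strand and the Tnf and Lta windows did not. Neither the AP-1 letters TGANTCA nor the CRE letters TGACGTCA lay in any of the 3 windows, and 6.75% and 1.55% of all promoters held them. Only these exact letters were searched, so variant sites, such as any in the Tnf window, were not counted. The motifs are letters in a window and not measured binding.

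The 3′ UTRs also differed. The pentamer ATTTA, the core of AU-rich elements, occurred 8 times in the 764 nt 3′ UTR of Tnf-201, a number that 0.379% of 2373 mouse 3′ UTRs within 10% of its length reached. It occurred 3 times in the 572 nt of Lta-201, a number reached by 12.5% of 2224 UTRs of like length, and was not found in the 156 nt of Ltb-201, for which the median of UTRs of like length was also 0.

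Libraries held between 10669821 and 21852830 estimated counts. Ribosomal RNA genes took 1.78% to 9.66% in stimulated compound 10 cells, 3.58% and 13.8% in stimulated vehicle cells, 6.67% and 3.11% in unstimulated compound 10 cells and 4.72% and 26.3% in unstimulated vehicle cells, so vehicle library 2 stood apart in both states. The labelled cell type was present: 12 CD4 T cell markers summed to 3660 to 3790, 3130 to 3850, 2120 to 2360 and 1440 to 1580 CPM in the same order of groups. Of the other cells, 13 B cell markers summed to 1180 to 1720, 652 to 1510, 830 to 968 and 686 to 1200 CPM, and 10 natural killer and innate lymphoid markers to 33.2 to 47.8, 26.5 to 30.4, 25.3 to 27.2 and 14.0 to 20.0 CPM. The 14 markers of monocytes, macrophages and dendritic cells summed to 12.8 to 22.2 CPM over all libraries, with Fcgr1 at 0 in every library, the 9 markers of neutrophils and mast cells to 1.24 to 7.85 CPM, and Cd8a with Cd8b1 to 4.43 to 7.31 CPM.

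Stimulation raised Tnf and Lta with and without the compound and Ltb in vehicle. In stimulated cells Tnf had 2049, 1687 and 2529.6 CPM (estimated counts relative to the library total, scaled by TMM) with compound 10 and 679 and 1368 CPM in vehicle. In unstimulated cells it had 12.5 and 10.2 CPM with compound 10 and 4.32 and 12.1 CPM in vehicle. Every stimulated library stood above every unstimulated one by a wide margin, and the lower of the stimulated vehicle libraries was the first. The log2 fold change of Tnf with stimulation was 7.52 ± 0.58 (SE) under compound 10 and 6.95 ± 0.57 in vehicle (adjusted p = 2.14e-05 and 2.41e-05 by edgeR's quasi-likelihood test with Benjamini-Hochberg adjustment, as for all adjusted p-values here).

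Lta, the least abundant member per length after stimulation, had 53.0, 61.4 and 56.9 CPM in stimulated compound 10 cells and 28.9 and 19.0 CPM in stimulated vehicle cells. It had 7.73 and 7.20 CPM in unstimulated compound 10 cells and 5.04 and 4.0 CPM in unstimulated vehicle cells. The 4 groups of Lta did not overlap, with the stimulated compound 10 libraries highest and the unstimulated vehicle libraries lowest. Its log2 fold change with stimulation was 2.94 ± 0.23 under compound 10 and 2.41 ± 0.24 in vehicle (adjusted p = 4.95e-06 and 2.41e-05).

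Ltb was the most abundant member per length at rest and changed least with stimulation. It had 95.7, 180.5 and 94.9 CPM in stimulated compound 10 cells and 248 and 142 CPM in stimulated vehicle cells. It had 65.5 and 77.4 CPM in unstimulated compound 10 cells and 81.4 and 61.2 CPM in unstimulated vehicle cells. The stimulated compound 10 libraries split, with library 2 between the vehicle libraries and the other two only somewhat above the unstimulated ones. Ltb rose with stimulation in vehicle by 1.45 ± 0.36 on the log2 scale (adjusted p = 0.0129), and the change under compound 10 was 0.79 ± 0.33 (adjusted p = 0.117). The rise in vehicle did not pass without stimulated vehicle library 1 (1.00, adjusted p = 0.0908) or without unstimulated vehicle library 2 (1.26, adjusted p = 0.0966).

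Thus 3 of 3 members were called higher with stimulation in vehicle, where 14.4% of 14011 genes tested were called higher and 13.8% lower, and 2 of 3 under compound 10, where 11.0% were called higher and 10.8% lower. In both, the stimulated libraries of all 3 members lay above the unstimulated ones without overlap, as did those of 29.3% of genes in vehicle and 24.2% under compound 10. The log2 change with stimulation was larger under compound 10 than in vehicle by 0.57 ± 0.62 for Tnf and by 0.53 ± 0.32 for Lta, and for Ltb the difference was -0.66 ± 0.48. Of these 3 differences 0 passed edgeR's test (interaction, adjusted p = 0.763, 0.503 and 0.602), which called 1.03% of genes in either direction, 0 had an unadjusted p under 0.05 and 0 passed with DESeq2.

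**Figure D1:**
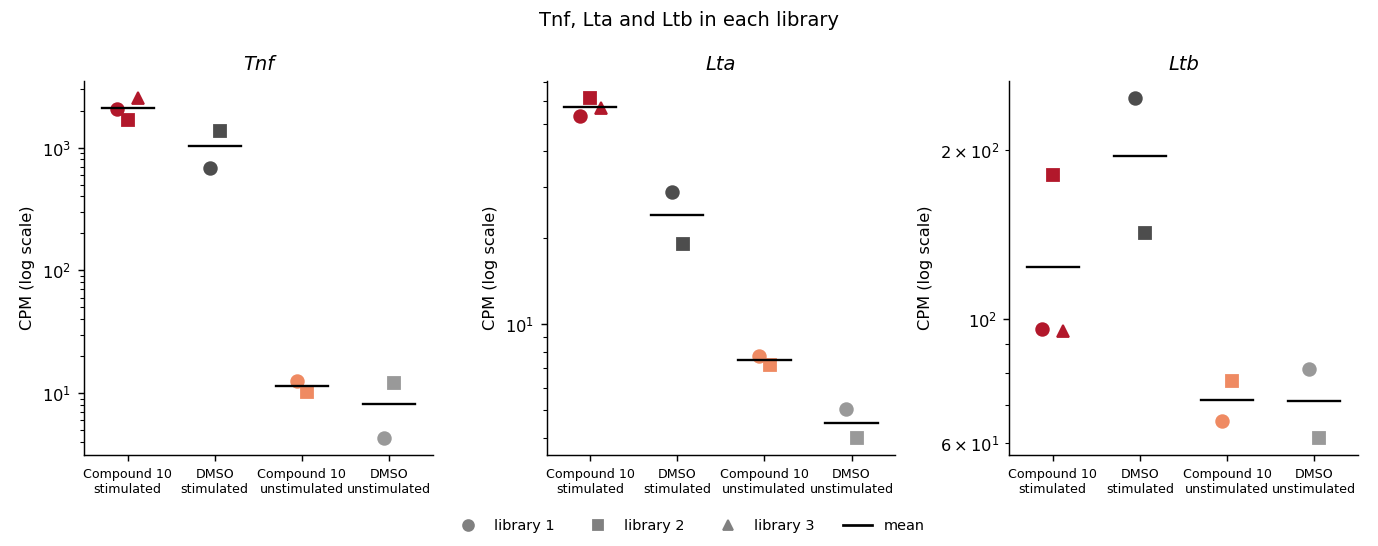
Normalised level of Tnf, Lta and Ltb in each library (CPM, log axis), in stimulated cells with compound 10 and with DMSO and in unstimulated cells with compound 10 and with DMSO; each symbol is a library and lines are group means. Stimulated libraries lie above the unstimulated ones for all 3 genes, and only for Ltb do the stimulated compound 10 and DMSO libraries overlap.

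Compared per transcript length, Tnf and Ltb changed places with stimulation, and Lta had the lowest mean in each group. In TPM, which also divides by transcript length, Tnf averaged 1102 ± 114 in stimulated compound 10 cells and 568 ± 253 in stimulated vehicle cells (SD, n = 3 and 2), against 101 ± 48.4 and 168 ± 68.9 for Ltb and 37.1 ± 5.71 and 16.4 ± 5.31 for Lta. In unstimulated cells Ltb averaged 75.1 ± 14.4 TPM with compound 10 and 77.9 ± 36.0 TPM in vehicle (SD, n = 2 each), against 7.89 ± 0.467 and 5.2 ± 2.23 TPM for Tnf and 6.33 ± 0.174 and 3.94 ± 1.72 TPM for Lta. Tnf was above Ltb and Ltb above Lta in each of the 5 stimulated libraries, and Ltb stood above the others in each of the 4 unstimulated ones. Unstimulated Tnf and Lta did not differ beyond their spread in vehicle, where Tnf was below Lta in library 1 and above it in library 2.

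Among 21647 protein-coding genes ranked by TPM, Tnf stood between places 111 and 129 in stimulated compound 10 cells and at 244 and 156 in stimulated vehicle cells, while it stood at 4617 and 5054 in unstimulated compound 10 cells and at 7001 and 4635 in unstimulated vehicle cells. Ltb stayed between places 368 and 868 in all 9 libraries. Lta lay between 1355 and 1486 in stimulated compound 10 cells and at 2514 and 3209 in stimulated vehicle cells, and between 5320 and 6863 in unstimulated cells.

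Within the summed TPM of the locus, Tnf held 90.8%, 83.2% and 92.3% in stimulated compound 10 cells and 62.2% and 85.0% in stimulated vehicle cells. Ltb held 6.38%, 13.1% and 5.22% with compound 10 and 34.6% and 13.5% in vehicle. On TPM, an unplanned alternative to counts, the Ltb share was thus lower in every compound 10 library than in either vehicle library. Library 2 of each group came within a percentage point of the other. The exact permutation test over the 5 stimulated libraries (2-sided) gave p = 0.1 for Ltb, 0.2 for Tnf and 0.5 for Lta, and 0.1 is the smallest p that its 10 arrangements allow. On shares of estimated counts, the measure planned, Ltb held 5.75% ± 3.15 with compound 10 and 17.6% ± 11.8 in vehicle (SD, n = 3 and 2). There the groups overlapped, with 9.36% in stimulated compound 10 library 2 and 9.31% in stimulated vehicle library 2. The same exact permutation test gave p = 0.2 for Ltb on counts. In unstimulated cells Ltb held between 81.8% and 92.2% of the summed TPM.

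**Figure D2:**
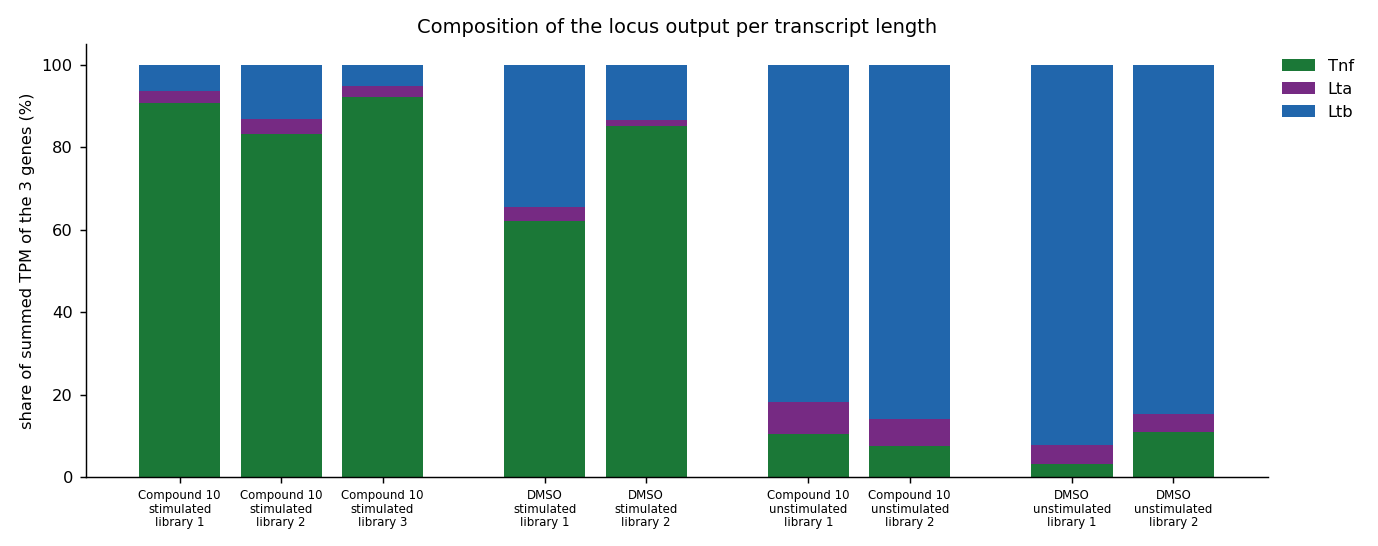
Share of the summed TPM of the 3 genes held by Tnf, Lta and Ltb (%), 1 bar per library, with compound 10 left of DMSO in each state. Tnf fills 62.2% to 92.3% of the stimulated bars and Ltb 81.8% to 92.2% of the unstimulated ones.

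In stimulated cells compound 10 raised Lta, and the differences of Tnf and Ltb did not pass the test. From the CPM values above, Lta averaged 57.1 ± 4.23 CPM with compound 10 and 24.0 ± 7.02 CPM in vehicle (SD, n = 3 and 2), a 2.38-fold higher level and a log2 fold change of 1.25 ± 0.21 (95% interval 0.80 to 1.70, adjusted p = 0.00121). The 3 compound 10 libraries lay close together and well above both vehicle libraries. Lta passed under all 19 other processing settings and omissions of a library tried, with log2 fold changes of 0.98 to 1.59.

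Tnf averaged 2088 ± 423 CPM with compound 10 and 1023 ± 487 CPM in vehicle (SD, n = 3 and 2), a log2 fold change of 1.03 ± 0.41 (95% interval 0.11 to 1.95). All 3 compound 10 libraries were above both vehicle libraries, but the vehicle libraries lay far apart, and the change did not pass (adjusted p = 0.106, unadjusted p = 0.0322). It was 0.61 without stimulated vehicle library 1 (adjusted p = 0.42) and 1.62 without stimulated vehicle library 2. It passed without either of the unstimulated vehicle libraries (1.03 in both, adjusted p = 0.0309 and 0.0307), and in 6 of 19 alternatives in all, among them DESeq2 (1.01, adjusted p = 0.0129).

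Ltb averaged 124 ± 49.2 CPM with compound 10 and 195 ± 74.4 CPM in vehicle (SD, n = 3 and 2). Its log2 fold change was -0.66 ± 0.32 (95% interval -1.36 to 0.05, adjusted p = 0.173). The groups overlapped because compound 10 library 2, at 180.5 CPM, exceeded vehicle library 2, at 142 CPM. Without that compound 10 library the change was -1.05 and passed (adjusted p = 0.00905), and without stimulated vehicle library 1 it was -0.20 (adjusted p = 0.756).

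In this comparison 1 of 3 members was called higher and 0 lower, where 11.7% of genes were called higher and 11.4% lower; edgeR's unadjusted p for Ltb was 0.0645. For 2 of 3 members the compound 10 libraries lay above the vehicle libraries without overlap, as for 24.2% of genes. The 5 stimulated libraries also differed in cell type markers. Of 12 CD4 T cell markers 6 were called higher with compound 10 and 2 lower, by edgeR and by DESeq2. Of 8 tested natural killer and innate lymphoid markers edgeR called 4 higher and 0 lower, and DESeq2 4 higher and 1 lower. The 4 that edgeR called lay at 0.209 to 7.29 CPM in stimulated libraries. Of 10 tested B cell markers 0 passed by edgeR or DESeq2 and 0 had an unadjusted p under 0.05. Natural killer and B cells can express Tnf, Lta and Ltb too, and the part of such cells in the values was not tested. In bulk RNA, fewer cells of a type and less RNA per cell cannot be told apart.

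The levels of the members inside groups were set beside the share of ribosomal RNA. In each of the 4 groups the library with the lowest ribosomal RNA share had the lowest Tnf and the highest Ltb of its group, for example 1687 CPM of Tnf and 180.5 CPM of Ltb in stimulated compound 10 library 2, and 679 CPM and 248 CPM in stimulated vehicle library 1. Lta was highest in that library in 3 of the 4 groups. The other groups than stimulated compound 10 hold 2 libraries each, where a gene can only be lowest or highest. Among the stimulated compound 10 libraries Tnf did not follow the share throughout. It was highest in library 3, at 7.48% ribosomal RNA, and not in library 1, at 9.66%. This order was noticed after the values were seen and was not tested, and how many other genes show it was not counted. With the ribosomal RNA genes removed, the log2 fold changes with compound 10 in stimulated cells were 1.05 for Tnf, 1.28 for Lta and -0.62 for Ltb, and with vehicle library 2, the richer in ribosomal RNA, left out in both states they were 1.62, 0.98 and -1.0.

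**Figure D3:**
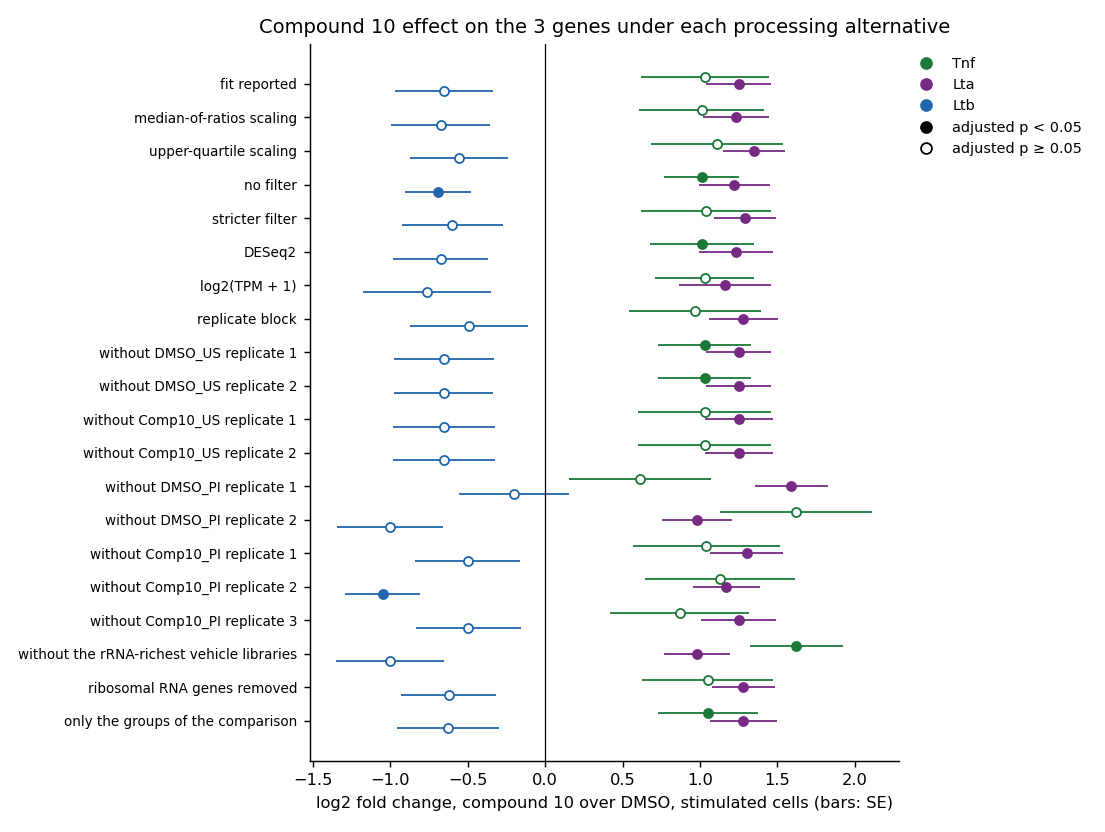
Log2 fold change of Tnf, Lta and Ltb with compound 10 over DMSO in stimulated cells (x axis; bars are SE) in the fit reported, at the top, and in 19 alternatives; filled symbols had an adjusted p under 0.05. Lta is filled throughout, Tnf lies between 0.61 and 1.62 and Ltb between -1.05 and -0.20.

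In unstimulated cells 0 of 3 members were called with compound 10, by edgeR's quasi-likelihood test and by DESeq2, where edgeR called 4.45% of genes higher and 2.91% lower; 1 of 3 had an unadjusted p under 0.05. Lta came closest, with 7.46 ± 0.377 CPM with compound 10 and 4.52 ± 0.736 CPM in vehicle (SD, n = 2 each), a log2 fold change of 0.72 ± 0.25 (95% interval 0.19 to 1.26, adjusted p = 0.099, unadjusted p = 0.0123). Its compound 10 libraries lay above both vehicle libraries, as was so for 1 of 3 members and 28.2% of genes. Tnf differed by 0.46 ± 0.47 (95% interval -0.60 to 1.51), and Ltb by 0.00 ± 0.35 (95% interval -0.78 to 0.79), and both overlapped. The values rest on 60 to 192 estimated counts of Tnf and 62 to 130 of Lta per unstimulated library and 2 libraries a group, and the intervals above are wide.

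At the level of transcripts, each member's RNA was nearly all 1 form. Tnf-201 took between 99.8878% and 100% of Tnf counts in every library. Tnf-202, the form without exon 3, was listed with 0, 11.7 and 12.6 counts in stimulated compound 10 cells, with 0 and 25.6 in stimulated vehicle cells and with 0 in unstimulated cells, so it was seen only in some stimulated libraries. Lta-201 was the only Lta transcript. It rose with compound 10 in stimulated cells by 1.24 ± 0.23 on the log2 scale (adjusted p = 0.0281 over 29763 transcripts), where 2.22% of transcripts were called higher and 2.53% lower. That call ended without either unstimulated compound 10 library, without stimulated vehicle library 2 or without any 1 of the stimulated compound 10 libraries (adjusted p = 0.0551 to 0.105).

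Ltb was divided further. Ltb-201 held 93.3%, 97.4% and 90.9% of Ltb counts in stimulated compound 10 cells and 93.2% and 93.3% in stimulated vehicle cells. Ltb-203, a protein-coding form with another start and a shorter exon 2, held 4.29%, 0.378% and 4.77% with compound 10 and 5.85% and 5.32% in vehicle. Every compound 10 library was below both vehicle libraries in its Ltb-203 share, with library 2 the lowest. These shares rest on 10.5 to 278 estimated counts of Ltb-203 per stimulated library. The change of Ltb-203 was -1.85 ± 0.77 on the log2 scale and did not pass (adjusted p = 0.256, unadjusted p = 0.046). Ltb-202, the retained-intron form, held 2.39%, 2.21% and 4.35% with compound 10 and 0.970% and 1.37% in vehicle, and its level changed by 0.65 ± 0.67 (adjusted p = 0.708). The Ltb-202 share was higher in each compound 10 library, on 28.5 to 61.2 estimated counts per stimulated library, while its level did not pass. How often the shares of other transcripts separate in this way was not tested. The forms of Ltb share exons, so kallisto's division of reads between them adds error to these shares.

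Genes that receive or release these cytokines moved in both directions with compound 10 in stimulated cells. Of 10 genes for receptors, the TNF sheddase and a partner ligand, 8 were tested, 1 was called higher and 3 lower, where 11.7% of all genes were called higher and 11.4% lower. Their median log2 fold change was 0.14, beside 0.00 over all genes. Tnfsf14, the ligand LIGHT, which binds the lymphotoxin beta receptor and HVEM, fell to 17.1, 11.3 and 12.3 CPM with compound 10, against 62.6 and 57.4 CPM in vehicle (log2 fold change -2.14 ± 0.24, adjusted p = 0.000121). Btla, an inhibitory receptor that binds HVEM, fell by 1.33 ± 0.27 on the log2 scale, and Frmd8, which stabilises the sheddase complex, rose by 0.97 ± 0.20 (adjusted p = 0.00396 and 0.00478). Without stimulated vehicle library 2 the adjusted p was 0.0576 for Btla and 0.0582 for Frmd8. Adam17, the sheddase that frees TNF from the membrane, fell by 0.59 ± 0.19 (adjusted p = 0.0373), and this call ended on leaving out any library other than stimulated compound 10 library 1 (adjusted p = 0.0502 to 0.142).

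Tnfrsf1a, which encodes TNFR1, had 37.9, 27.6 and 34.2 CPM with compound 10 and 27.0 and 16.5 CPM in vehicle (0.61 ± 0.22, adjusted p = 0.0696), and passed without stimulated vehicle library 1 or stimulated compound 10 library 2 (adjusted p = 0.0189 to 0.0357). Rhbdf2, which carries Adam17 to the surface, differed by 0.74 ± 0.41 (adjusted p = 0.238) and passed without stimulated compound 10 library 2 (adjusted p = 0.0247). With stimulation 3 of the 8 genes rose and 1 fell, both under compound 10, where 11.0% of all genes rose and 10.8% fell, and in vehicle, where 14.4% rose and 13.8% fell.

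Among 27 genes that act just below the TNF and lymphotoxin receptors, 5 were called higher and 6 lower with compound 10 in stimulated cells, beside 11.7% and 11.4% of all genes (median log2 fold change 0.06). Birc3, the ubiquitin ligase cIAP2, rose to 175, 176 and 201 CPM with compound 10, against 62.1 and 72.3 CPM in vehicle (1.45 ± 0.19, adjusted p = 0.000339). Tnip1, a partner of the brake A20, rose by 1.32 ± 0.16, and Rbck1, a subunit of the linear ubiquitin ligase, by 1.22 ± 0.20 (adjusted p = 0.00018 and 0.00105). Map3k7, the kinase TAK1, fell by 1.38 ± 0.19 and Ripk3, the kinase of necroptosis, by 1.27 ± 0.18 (adjusted p = 0.000417 and 0.000411). Tnfaip3, which encodes A20 itself, fell by 1.04 ± 0.28 (adjusted p = 0.0215), a call that ended without either of the stimulated vehicle libraries (adjusted p = 0.0555 and 0.148). The other 5 of these genes kept their calls in all 19 alternatives. With stimulation in vehicle 6 of the 27 rose and 6 fell, beside 14.4% and 13.8% of all genes.

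Of 18 genes for mRNA decay and AU-rich element factors, 2 were called higher and 1 lower with compound 10 in stimulated cells (median -0.02), shares no larger than the 11.7% and 11.4% of all genes. Zfp36, tristetraprolin, which binds AU-rich elements such as those of Tnf and speeds the decay of the mRNA, had 776, 628 and 607 CPM with compound 10 and 325 and 292 CPM in vehicle (1.12 ± 0.20, adjusted p = 0.00186). In unstimulated cells it had 334 and 265 CPM with compound 10 and 91.8 and 105 CPM in vehicle (1.61 ± 0.22, adjusted p = 0.00142). Zfp36 therefore rose with the compound in both states. Of the 18, 1 was called higher and 2 lower in unstimulated cells, beside 4.45% and 2.91% of all genes. Cnot1 was among the lower ones there (log2 fold change -0.96 ± 0.21, adjusted p = 0.0177). Cnot1, the scaffold of the CCR4-NOT deadenylase, fell by 0.94 ± 0.19 (adjusted p = 0.00374), a call that ended on log2(TPM + 1) (adjusted p = 0.115) and without the vehicle libraries richest in ribosomal RNA (adjusted p = 0.0633). Mapk14, the kinase p38 alpha, rose by 0.77 ± 0.22 (adjusted p = 0.023), a call that ended without either of the stimulated vehicle libraries or without stimulated compound 10 libraries 1 or 3 in turn (adjusted p = 0.0734 to 0.115). Zfp36l1, a relative of tristetraprolin, differed by -0.62 ± 0.24 (adjusted p = 0.0795), Zc3h12a, the RNase Regnase-1, by 0.43 ± 0.23 (adjusted p = 0.199) and Cnot8, a deadenylase, by -0.34 ± 0.18 (adjusted p = 0.198). Of these, Zfp36l1 passed without stimulated vehicle library 2 or stimulated compound 10 library 2 (adjusted p = 0.0183 to 0.0453) and Zc3h12a without stimulated compound 10 library 2 (adjusted p = 0.0389).

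Of 23 transcription factors and coactivators that act on the Tnf promoter, 4 were called higher and 3 lower with compound 10 in stimulated cells (median 0.10), near the 11.7% and 11.4% of all genes. Egr1, an immediate-early zinc finger factor, had 4981, 3924 and 4259 CPM with compound 10 and 931 and 955 CPM in vehicle (2.22 ± 0.26, adjusted p = 0.000158). Nfkb1, the precursor of the p50 subunit of NF-kB, had 142, 165 and 151 CPM with compound 10 and 464 and 363 CPM in vehicle (-1.44 ± 0.21, adjusted p = 0.000555). These 2 calls held in all 19 alternatives, one upward and one downward.

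The calls of 4 further factors depended on single libraries. Rel, the NF-kB subunit c-Rel, fell by 0.74 ± 0.19 (adjusted p = 0.0166), but not without library 1 of either stimulated group (adjusted p = 0.061 to 0.117). Relb, another subunit, rose by 0.79 ± 0.23 (adjusted p = 0.0291), but not without vehicle library 2 or compound 10 libraries 1 or 3 of the stimulated cells (adjusted p = 0.0629 to 0.212). Nfatc1, a calcium-activated NFAT factor, fell by 0.81 ± 0.24 (adjusted p = 0.0313), but not without either of the stimulated vehicle libraries or without stimulated compound 10 library 3 (adjusted p = 0.0579 to 0.168). Nfatc2, the NFAT factor known best from resting T cells, rose by 1.17 ± 0.36 at a low level of 2.52 to 7.61 CPM (adjusted p = 0.0349), but not without either of the stimulated vehicle libraries or without stimulated compound 10 libraries 1 or 3 in turn (adjusted p = 0.0788 to 0.193). With stimulation 14 of the 23 rose and 0 fell under compound 10, beside 11.0% and 10.8% of all genes, and 14 rose and 2 fell in vehicle, beside 14.4% and 13.8%.

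Of 15 other ligands of the TNF superfamily, 8 were tested, and with compound 10 in stimulated cells 1 was called higher and 2 lower, beside 11.7% and 11.4% of all genes, with a median of -0.56. Besides Tnfsf14, Fasl, the death ligand, fell to 21.6, 26.9 and 29.0 CPM with compound 10, against 45.5 and 54.2 CPM in vehicle (-0.95 ± 0.23, adjusted p = 0.01, and 0.0835 without stimulated vehicle library 2). Tnfsf9, the costimulatory ligand of 4-1BB, rose by 1.14 ± 0.36 (adjusted p = 0.0455), and this call ended without either unstimulated compound 10 library, without stimulated vehicle library 2 or without any 1 of the stimulated compound 10 libraries (adjusted p = 0.0569 to 0.264). Tnfsf8, the CD30 ligand, differed by -0.53 ± 0.23, Tnfsf10, which encodes TRAIL, by -0.77 ± 0.43 and Tnfsf4, the OX40 ligand, by -0.60 ± 0.45 (adjusted p = 0.126, 0.233 and 0.392). With stimulation 7 of the 8 rose under compound 10, beside 11.0% of all genes, and 7 of 8 in vehicle, beside 14.4%, with medians of 2.68 and 2.95.

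**Figure D4:**
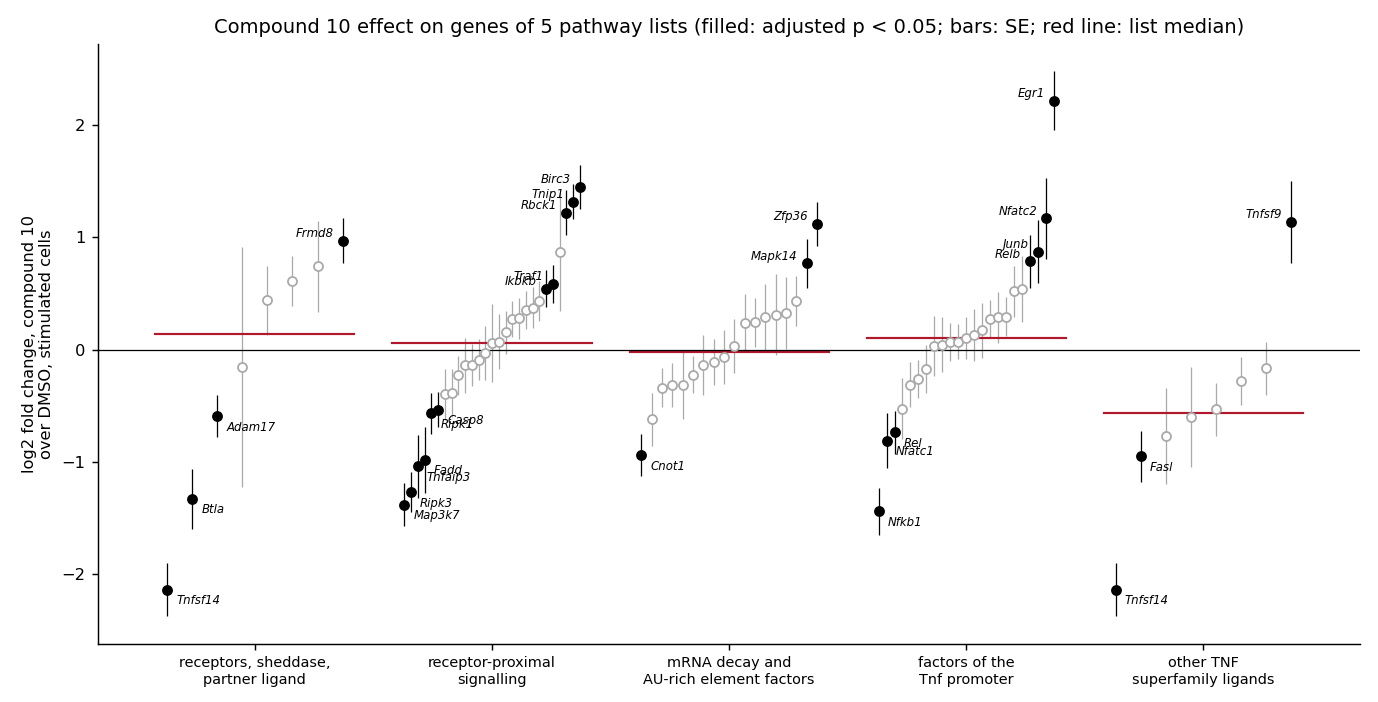
Log2 fold change with compound 10 over DMSO in stimulated cells (y axis; bars are SE) for the tested genes of 5 lists; filled symbols had an adjusted p under 0.05 and red lines are list medians. Each list holds called genes on both sides of 0, from Tnfsf14 at -2.14 to Egr1 at 2.22.

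Around the locus, 37 protein-coding genes started within 250 kb of the start of Tnf, of which 22 were tested. With compound 10 in stimulated cells 6 were called higher and 1 lower, beside 11.7% and 11.4% of all genes, and the median was 0.17. The nearest called gene was Nfkbil1, a nuclear inhibitor-like protein gene of the IκB type (chr17:35220175-35235792, reverse strand), which started 33.8 kb beyond Tnf on the side of Lta and had 9.38, 12.3 and 7.33 CPM with compound 10 and 2.98 and 2.40 CPM in vehicle (1.85 ± 0.29, adjusted p = 0.000842). It kept its call in all 19 alternatives, but overlaps Gm16181 and Atp6v1g2 on the other strand, whose reads could not be told from its own. Gm16181 itself, at a mean of 0.409 CPM with compound 10 and 0.703 CPM in vehicle, differed by -0.73 ± 0.72 (adjusted p = 0.527). The next tested genes beyond these were not called: Ddx39b, an RNA helicase (-0.23 ± 0.17), and, on the side of Ltb, Prrc2a (0.13 ± 0.21).

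On the side of Ltb, Gpank1 rose by 0.66 ± 0.20 and Csnk2b, the regulatory subunit of casein kinase 2, fell by 0.81 ± 0.19 (adjusted p = 0.0335 and 0.00822), and these genes overlap. Abhd16a, a phospholipid hydrolase, rose by 1.52 ± 0.32, and Vars, the valyl-tRNA synthetase, by 1.16 ± 0.29 (adjusted p = 0.00535 and 0.0138). Hspa1b and Hspa1a, near-identical genes of the chaperone HSP70 whose reads can be exchanged, rose by 1.15 ± 0.28 and 0.84 ± 0.27 (adjusted p = 0.00977 and 0.0416). Only Nfkbil1 among the 7 kept its call through every omission of a library. Without stimulated vehicle library 2 the adjusted p was 0.0635 for Abhd16a, 0.123 for Vars and 0.0904 for Hspa1b, and without stimulated vehicle library 1 it was 0.0548 for Csnk2b. The Gpank1 call ended without either unstimulated compound 10 library, either stimulated vehicle library or stimulated compound 10 libraries 2 or 3 in turn (adjusted p = 0.05 to 0.135), and that of Hspa1a without stimulated vehicle library 2, without library 1 or 2 of stimulated compound 10 cells or without either unstimulated vehicle library (adjusted p = 0.059 to 0.277).

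**Figure D5:**
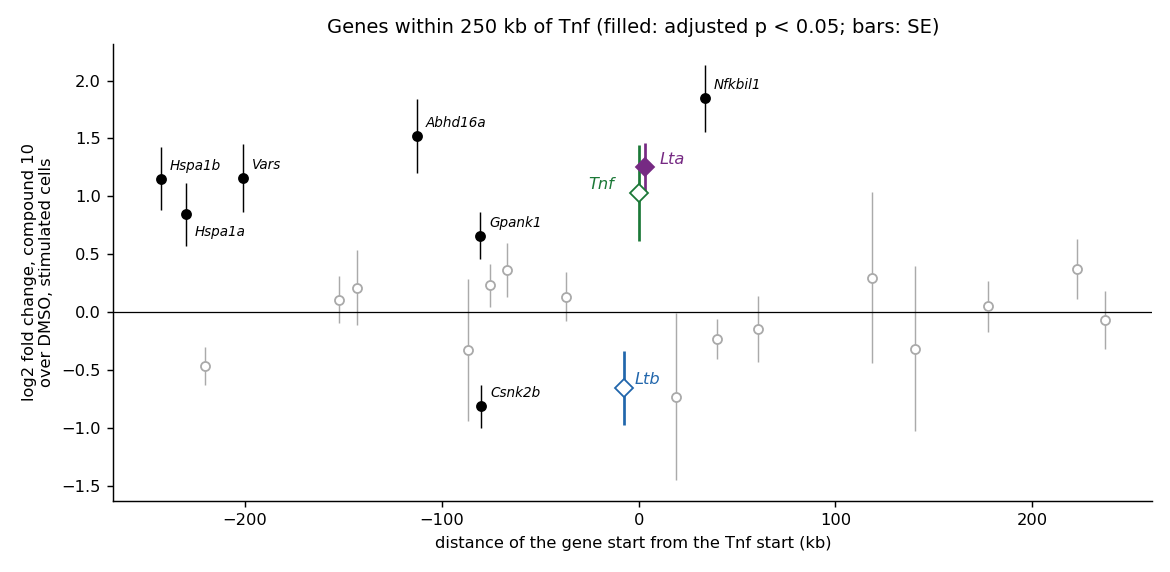
Log2 fold change with compound 10 over DMSO in stimulated cells (y axis; bars are SE) of the tested protein-coding genes within 250 kb of Tnf, by distance of their start from the Tnf start (kb, x axis); filled symbols had an adjusted p under 0.05, and diamonds are Tnf, Lta and Ltb. Called genes lie among uncalled ones on both sides, with Nfkbil1 at 1.85 the highest.

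The pattern of each member over the 9 libraries was compared with that of 4904 genes whose log2 CPM averaged 4 or more. Genes with predicted, Riken, clone or mitochondrial genome names were left out of these. The comparison is a description, since the libraries share their stimulation state and the members separate the stimulated from the unstimulated ones. Closest to Tnf were Elk4 (r = 0.994), Gpr183 (0.993), Nfkbiz (0.993), Eloc (0.992) and Fos (0.992). Closest to Lta were Grasp (r = 0.993), Cdkn1a (0.992), Cd84 (0.991), Trbc2 (0.99) and Lsm12 (0.989). Closest to Ltb were Sra1 (r = 0.981), Cox6a1 (0.98), Usp16 (0.978), Timm23 (0.977) and Pomp (0.973). Between the members r was 0.946 for Tnf and Lta, 0.671 for Tnf and Ltb and 0.641 for Lta and Ltb. The genes above were picked as the 5 highest of 4904 for each member, so their higher r follows from that choice.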

How the data were processed

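Libraries were made with Clontech SMART-seq from RNA extracted with Qiagen kits, per the labels' protocols; the submitters' processing notes name cutadapt, kallisto and mm10. Neither tool version nor annotation release is given in the sources used here. The authors deposited estimated counts per transcript, without normalization between libraries, and, per the file headers, TPM values beside them. Of 109617 transcripts, 108214 matched GENCODE M21 without the identifier's version; the rest held 0.542% to 0.829% of counts. Estimated counts were summed per gene and rounded. Genes passing filterByExpr (14011) were scaled by TMM, and edgeR 4.0.16 (R 4.3.3) tested them by glmQLFit with robust shrinkage and glmQLFTest, 2-sided, in 1 model of 4 groups and 9 libraries, adjusted by Benjamini-Hochberg over all of them; the threshold was 0.05. A standard error (SE) is the size of the log2 fold change over √F. The test was tested on simulated data. Transcripts were fitted the same way, and limma 3.58.1, DESeq2 1.42.0, other scalings, filters and omissions were alternatives.

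The members, gene lists and tests were chosen with earlier results of these data known. Named genes were the members, up to 6 per list with the smallest p for compound 10 in stimulated cells, neighbours called there and the 5 genes most like each member.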

Additional observations from a re-analysis of the deposited data

Results flagged for a closer look

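For 5 of the genes named beside the locus the effect of compound 10 differed between stimulated and unstimulated cells (edgeR's quasi-likelihood test of the interaction, Benjamini-Hochberg adjustment over 14011 genes, of which 1.03% passed). The log2 fold change with compound 10 in stimulated cells minus that in unstimulated cells was -2.17 ± 0.44 (SE) for Tnfsf14 (adjusted p = 0.04), where the change was -2.14 in stimulated and 0.03 in unstimulated cells. For Btla it was -2.51 ± 0.45 (adjusted p = 0.0259), from -1.33 in stimulated and 1.18 in unstimulated cells. For Tnip1 it was 1.23 ± 0.23 (adjusted p = 0.0267), from 1.32 in stimulated and 0.09 in unstimulated cells. For Birc3 it was 1.94 ± 0.28 (adjusted p = 0.0081), from 1.45 in stimulated and -0.49 in unstimulated cells. For Hspa1a it was -2.03 ± 0.39 (adjusted p = 0.0373), from 0.84 in stimulated and 2.88 in unstimulated cells. The groups hold 2 or 3 libraries each. Time in the compound may also differ between the states, and its part in these differences cannot be told apart from stimulation. Genes of the lists and the neighbourhood were named by their p for compound 10 in stimulated cells, which is part of this contrast. Their number passing is therefore not to be read against the 1.03% of all genes. At rest Tnfsf14 had only 0.909 to 1.83 CPM and Btla 1.94 to 6.17 CPM. These 5 calls were not tested under the alternatives. With the replicate block the interaction called 43 genes in place of 144.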

How the results depend on the processing

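The calls of Lta with compound 10 in stimulated cells and of Tnf and Lta with stimulation held in all 19 alternatives, and no member passed for compound 10 in unstimulated cells or for the interaction in any. Tnf with compound 10 in stimulated cells passed without a filter (1.01, adjusted p = 0.000519), with DESeq2 (1.01), with only the groups compared (1.05, adjusted p = 0.0469) and without the vehicle libraries richest in ribosomal RNA (1.62, adjusted p = 0.0104). Ltb there passed without a filter (-0.69), and its stimulation under compound 10 passed without a filter (0.78) and with DESeq2 (0.80). Ltb with stimulation in vehicle was lost on log2(TPM + 1) (1.11, adjusted p = 0.108) and without the vehicle libraries richest in ribosomal RNA (1.60, adjusted p = 0.0628). The sign of the Ltb change with compound 10 in unstimulated cells turned with upper-quartile scaling (-0.0064), without unstimulated vehicle library 2 or the vehicle libraries richest in ribosomal RNA (-0.19 in both) and without unstimulated compound 10 library 2 (-0.12). That of Tnf turned without unstimulated vehicle library 1 (-0.10), the Tnf interaction turned without unstimulated vehicle library 2 (-0.36), and the Lta share of locus counts, 0.437 percentage points higher with compound 10, was -0.457 without stimulated vehicle library 2 and at most 1.33 without another library. The cause was not tested.

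Leaving out 1 library at a time gave log2 fold changes of 0.61 to 1.62 (Tnf), 0.98 to 1.59 (Lta) and -1.05 to -0.20 (Ltb) for compound 10 in stimulated cells, -0.10 to 1.39, 0.56 to 0.90 and -0.19 to 0.22 in unstimulated cells, 6.36 to 7.88, 2.07 to 2.68 and 1.00 to 1.80 for stimulation in vehicle, 7.36 to 7.67, 2.88 to 2.99 and 0.42 to 0.95 under compound 10, and -0.36 to 1.17, 0.26 to 0.86 and -1.08 to -0.20 for the interaction. Genes called numbered 2014 to 3150 (3234 with all libraries), 177 to 1452 (1031), 2466 to 4335 (3940), 1535 to 3126 (3052) and 28 to 260 (144) in the same order of comparisons. The lowest were without stimulated vehicle library 2, unstimulated compound 10 library 1, unstimulated vehicle library 2, unstimulated compound 10 library 2 and unstimulated compound 10 library 1. Other settings moved these counts by over 1.5 times: compound 10 in stimulated cells gave 1195 on log2(TPM + 1) and 1861 without the vehicle libraries richest in ribosomal RNA; in unstimulated cells 1569 without a filter, 231 on log2(TPM + 1) and 291 without those vehicle libraries; stimulation in vehicle 1606 without them; and the interaction 512 without a filter, 239 with a stricter one, 454 with DESeq2, 22 on log2(TPM + 1) and 13 without those vehicle libraries.

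Libraries with the same number deviated together between the vehicle groups (r = 0.326), the compound 10 groups (0.231 and 0.182) and, less, the stimulated groups (0.181 and 0.094), but not between the unstimulated groups (r = -0.101), so the numbers were not taken to pair libraries. With the replicate block the log2 fold changes of Tnf, Lta and Ltb with compound 10 in stimulated cells were 0.97, 1.28 and -0.49 (adjusted p = 0.159, 0.00626 and 0.423), the interaction called 43 genes, and calls of the Lta-201 transcript (adjusted p = 0.0908), Adam17, Mapk14, Nfatc2, Tnfsf9 and Gpank1 ended. With the numbers of the unstimulated compound 10 libraries exchanged, an alternative chosen after seeing the data, 575 genes were called there. On log2(TPM + 1) the calls with compound 10 in stimulated cells also ended for Frmd8, Adam17, Mapk14, Rel, Relb, Nfatc1, Nfatc2, Fasl, Tnfsf9, Hspa1a, Hspa1b, Vars and Gpank1. Groups of 2 or 3 libraries limit the precision of every value.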

Other observations

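Both heat shock genes at the edge of the neighbourhood rose with compound 10 at rest, where no member of the locus passed the test. In unstimulated cells Hspa1a had 148 and 86.3 CPM with compound 10 and 16.3 and 15.6 CPM in vehicle, and Hspa1b had 22.6 and 27.0 CPM with compound 10 and 5.19 and 2.77 CPM in vehicle. The log2 fold changes were 2.88 ± 0.31 and 2.64 ± 0.31 (adjusted p = 0.000492 and 0.000664 by edgeR's quasi-likelihood test with Benjamini-Hochberg adjustment). These were the 2 genes of the 22 tested within 250 kb of Tnf that were called with compound 10 at rest. Over all genes 4.45% were called higher there and 2.91% lower. Reads of these near-identical genes can be exchanged, so the 2 calls are not independent.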
